A study of Mus musculus with 6 samples.

Results

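Cultured mouse dorsal root ganglion (DRG) neurons kept in vehicle are described here across all genes. They were chosen by treatment label alone: the 3 vehicle count files of the 6 in the series were used, and the 3 treated files entered no value. The study asks whether HC-HA/PTX3, a complex of heavy chain, hyaluronan and pentraxin 3 purified from human birth tissue, changes gene expression in DRG neurons. The methods name C57BL/6 wild-type mice of both sexes aged 2 to 3 months. All 3 vehicle libraries had Y-linked RNA and little Xist, as given below. All lumbar ganglia were dissociated and plated in medium with serum and added growth factors. After 24 h on the dish, vehicle was applied for another 24 h, so RNA was taken at 48 h.

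As a model of DRG neurons these cultures have limits that the labels and methods state or leave unstated. No step that selects neurons is named, the neurons were cut from their axons at dissociation, and serum and added growth factors, glial cell line-derived neurotrophic factor (GDNF) among them, were present throughout. Nothing in the labels states whether the 3 replicates came from separate animals or separate cultures.

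A DRG holds the cell bodies of the sensory neurons that carry touch, body position, temperature, itch and pain to the spinal cord. Each neuron class is set by transcription factors during development and keeps its own channels, receptors and peptides, and each cell body is wrapped by satellite glia. Cutting the axon, in the animal or by dissociation, switches many of these neurons from a transmitting state to a growth state with its own factors and peptides.

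Vehicle replicates 1, 2 and 3 held 42516054, 42617496 and 54117547 counts. Levels are in CPM, the share of each gene in the library total written in parts per 1e6, with totals scaled by the trimmed mean of M values (TMM) among these libraries. Levels of different genes are compared as CPM per kb of exon, the CPM divided by the joined length of all annotated exons, and a ranking by CPM gives shares of the library. With the length of the longest transcript in its place, 11 of the 22 marker list sums moved by more than their SD over cultures. Where 3 values stand in a row they are vehicle replicates 1, 2 and 3 in that order, which is a label and no sequence in time. A gene said to lead a list or family has the highest mean over the 3 cultures, and another gene can be higher in a single culture. A gene with no reads could still lie at up to 0.074, 0.0689 and 0.054 CPM, the level of 3 counts in each library, and this limit covers counting error only.

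Replicate 3 stands apart before any gene is described. The satellite glia list summed to 937, 519 and 300.3 CPM per kb, the dividing cell list to 148, 120.2 and 69.2 CPM per kb and the all-neuron list to 4654, 3757 and 4305 CPM per kb. Replicate 3 was lowest in the glial and dividing cell lists, while its neuron list lay between the other two. The paper mentions batch effects and corrects for them, but no label assigns a culture to a batch, so a batch and a replicate cannot be told apart here. Fewer cells of a type and less RNA per cell cannot be told apart in bulk RNA. The 3 libraries are not copies of each other: a chi-square over genes per degree of freedom was 37.0 for replicates 1 and 2, 108 for 1 and 3 and 75.8 for 2 and 3, where a value of 1 would be sampling alone.

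Of 35976 listed genes, 14238 were at 1 CPM or more in all 3 cultures and 7333 had no counts in any. At 100 CPM or more in all 3 stood 2122 genes, and at 1000 CPM or more 52. The counts were spread widely: 1052, 1160 and 1182 genes were needed to hold 50% of them. Protein-coding genes took 96.4% of all counts, long noncoding RNA genes 2.18% and the small nuclear RNA class 0.632%. Of 21295 protein-coding genes 13125 reached 1 CPM in all 3 cultures, against 723 of 10114 long noncoding RNA genes.

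By share of the library, the 10 genes with the highest mean CPM were Malat1, COX1, Map1b, Rn7sk, ND1, ND5, Dst, Actb, Rpph1 and CYTB, and together they held 6.997, 6.12 and 5.41% of counts. Malat1, a long noncoding RNA that stays in the nucleus, had the largest share at 15424, 15000.1 and 12157 CPM. Map1b, a microtubule-binding protein of growing axons, stood at 10867, 8205 and 7508 CPM, and Dst, a linker between filaments and microtubules, at 3935, 3618 and 3362 CPM. Both were highest in replicate 1. The rest of the 20 genes with the highest mean CPM included Prune2, Ahnak, Ank2, Plec and Sptbn1. Dync1h1, the heavy chain of the motor that moves cargo back along axons, was also among them. The others were the neurofilament gene Nefl, the elongation factor gene Eef1a1, the chaperone gene Hspa8 and the mitochondrial ND2.

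Per kb of exon the order changed, and 12 of the 20 highest genes were shared by both rankings. First and second came Rn7sk and Rpph1, short RNAs made by RNA polymerase III. Rn7sk, which holds the elongation factor P-TEFb inactive, stood at 20253, 16398 and 20133 CPM per kb. Rpph1, the RNA of ribonuclease P that trims transfer RNAs, stood at 9195, 11376 and 10193 CPM per kb. Rmrp, the RNA of the related ribonuclease MRP, stood at rank 15 with 708, 994 and 875 CPM per kb. Rn7sk was lowest in replicate 2, where Rpph1 and Rmrp were highest. These RNAs carry no poly(A) tail, and libraries made from total RNA keep them.

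Among genes that encode neuronal proteins, Sncg (gamma-synuclein) stood at 1395, 809.7 and 909.9 CPM per kb, Tuba1a (alpha-tubulin) at 1236, 1102 and 928 CPM per kb and Prph (peripherin, the filament of small-diameter neurons) at 473, 510.2 and 617 CPM per kb. Sncg and Tuba1a were highest in replicate 1 and Prph in replicate 3. Beside them stood the housekeeping genes Actb at 1323, 1476 and 1235 and Eef1a1 at 779, 979 and 892 CPM per kb.

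**Figure D1:**
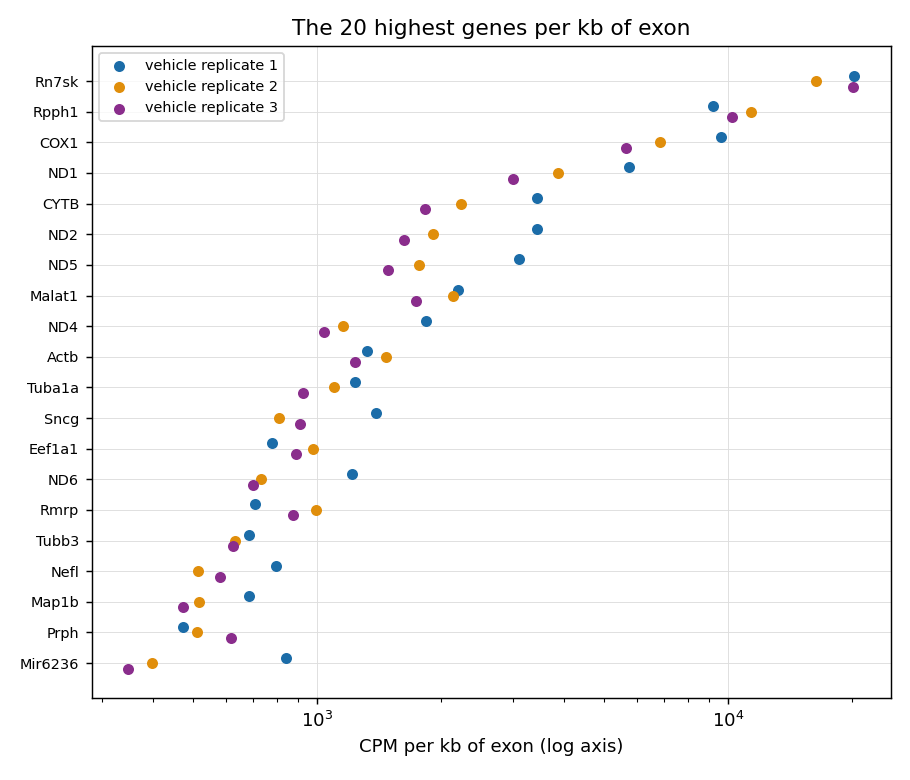
CPM per kb of exon (log axis) of the 20 genes with the highest mean on that scale, with 1 point for each of the 3 vehicle cultures. Rn7sk and Rpph1 lead, and each mitochondrial gene is highest in replicate 1.

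At rank 20 per kb stood Mir6236, the only microRNA gene among the 20, at 839, 396 and 348 CPM per kb. Replicate 1 was the highest. Its mature sequence, mmu-miR-6236, is shown because the count is of the gene span and says nothing of the mature RNA. RefSeq places it at chr9:110281353-110281371 (GRCm38.p6, plus strand); the capitals mark the seed, bases 2 to 8.
mmu-miR-6236: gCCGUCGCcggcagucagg

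The 13 protein-coding genes of the mitochondrial genome held 3.50, 2.46 and 2.05% of counts, most in replicate 1. COX1, the catalytic subunit of cytochrome c oxidase, stood at 9611, 6828 and 5660.1 CPM per kb, and ND1, a subunit of complex I, at 5743, 3860.2 and 2991 CPM per kb. The 6 genes that follow COX1 on the same molecule (COX2, ATP8, ATP6, COX3, ND3 and ND4L) held 0.00392, 0.00286 and 0.0022% of counts. COX2 was at 19.1, 12.6 and 8.21 CPM per kb although COX1 and COX2 encode subunits of the same enzyme. How reads with several matching places were handled is not stated, so the levels of genes with near-identical copies elsewhere in the genome, mitochondrial genes among them, are uncertain. Of 82 ribosomal protein genes, 78 stood at 10 CPM or more in all 3 cultures and their sum was 11855, 14172 and 13307 CPM. Rplp1, a stalk protein of the large subunit, was the highest at 337, 491 and 437 CPM per kb, and Rpl10l had no counts.

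The label of DRG neuron was met by its defining markers. Of 23 genes on the all-neuron list 22 were in the files (Drgx was not), and all 22 stood at 10 CPM or more in all 3 cultures. Uchl1, a ubiquitin hydrolase abundant in neurons, stood at 575, 452 and 537 CPM per kb. Avil, an actin-bundling protein of sensory neurons, stood at 187, 167 and 189 CPM per kb and Pirt, a membrane regulator of TRPV1, at 179, 172 and 182 CPM per kb. For both genes the 3 cultures lay close together. The heavier neurofilaments varied more: Nefh, of large myelinated neurons, stood at 234, 115 and 148 CPM per kb and Nefm at 202, 109 and 152 CPM per kb, highest in replicate 1 and lowest in replicate 2.

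Every subtype list of sensory neurons had members at 1 CPM or more in all 3 cultures, but their defining genes were not equally high. The peptidergic nociceptor list had 14 of 14 members at that level and summed to 689, 716 and 644 CPM per kb. Its sum was led by Calca, the gene of the vasodilator peptide CGRP, with 42.3% of it. Adcyap1, the gene of the peptide PACAP, followed at 127, 143 and 98.7 CPM per kb, and Calcb, a second CGRP gene, at 94.3, 79.3 and 69.1 CPM per kb. Trpv1, the heat and capsaicin channel, stood at 30.8, 32.1 and 27.4 CPM per kb and Trpa1, the irritant channel, at 11.4, 8.96 and 5.87 CPM per kb. All 4 genes were lowest in replicate 3.

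The non-peptidergic list had 10 of 12 members at 1 CPM or more in all 3 cultures and summed to 243, 211 and 276 CPM per kb. P2rx3, an ATP-gated channel of these nociceptors, carried 54.3% of the sum at 111, 111 and 174 CPM per kb and was highest in replicate 3. Mrgprd itself, the beta-alanine receptor that names the class, stood at 6.30, 2.43 and 4.33 CPM per kb, highest in replicate 1. Mrgprb4 had 2, 0 and 9 counts and Mrgprb5 3, 2 and 3, at or near the floor.

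Itch classes were read by their receptors and peptides. Mrgpra3, the chloroquine receptor, stood at 6.99, 3.53 and 1.40 CPM per kb, and Mrgprx1, a receptor of the BAM peptides, at 22.8, 12.1 and 13.5 CPM per kb; both were highest in replicate 1. The Mrgpra3 list summed to 96.5, 72.3 and 52.5 CPM per kb, but 71.1% of it was Gfra1, a GDNF co-receptor found in other neurons and in glia as well. In the other itch class Nppb, the peptide that signals itch to the spinal cord, stood at 1.64, 2.59 and 2.07 CPM per kb and Sst (somatostatin) at 1.64, 0.86 and 1.82 CPM per kb. Osmr, the oncostatin M receptor of the same class, stood at 7.92, 10.1 and 9.13 CPM per kb, and Nts (neurotensin) at 51.7, 46.9 and 43.5 CPM per kb led the list.

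Mechanoreceptor and cold lists showed the same split between broad and defining genes. Piezo2, the touch channel, stood at 40.5, 31.2 and 29.0 CPM per kb and led the C-fibre low-threshold list, while Th (tyrosine hydroxylase) stood at 5.06, 4.68 and 10.4 CPM per kb, highest in replicate 3. In the A-fibre list Ntrk2, the BDNF receptor, stood at 7.25, 5.62 and 2.69 CPM per kb and Ntrk3, the neurotrophin-3 receptor, at 7.11, 5.01 and 5.57 CPM per kb. Ntrk2 was lowest in replicate 3 and Ntrk3 in replicate 2. The proprioceptor sum rested to 83.6% on Spp1 (osteopontin), which other cell types also make, while Pvalb (parvalbumin) stood at 14.0, 5.78 and 9.77 CPM per kb and Runx3 at 1.11, 0.721 and 1.41 CPM per kb. Trpm8, the cold and menthol channel, stood at 2.37, 2.41 and 2.07 CPM per kb, and its list had the lowest sum of the 8 subtypes at 13.4, 10.2 and 7.91 CPM per kb. The lists differ in length and in how specific their genes are, so the sums give no share of neurons.

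**Figure D2:**
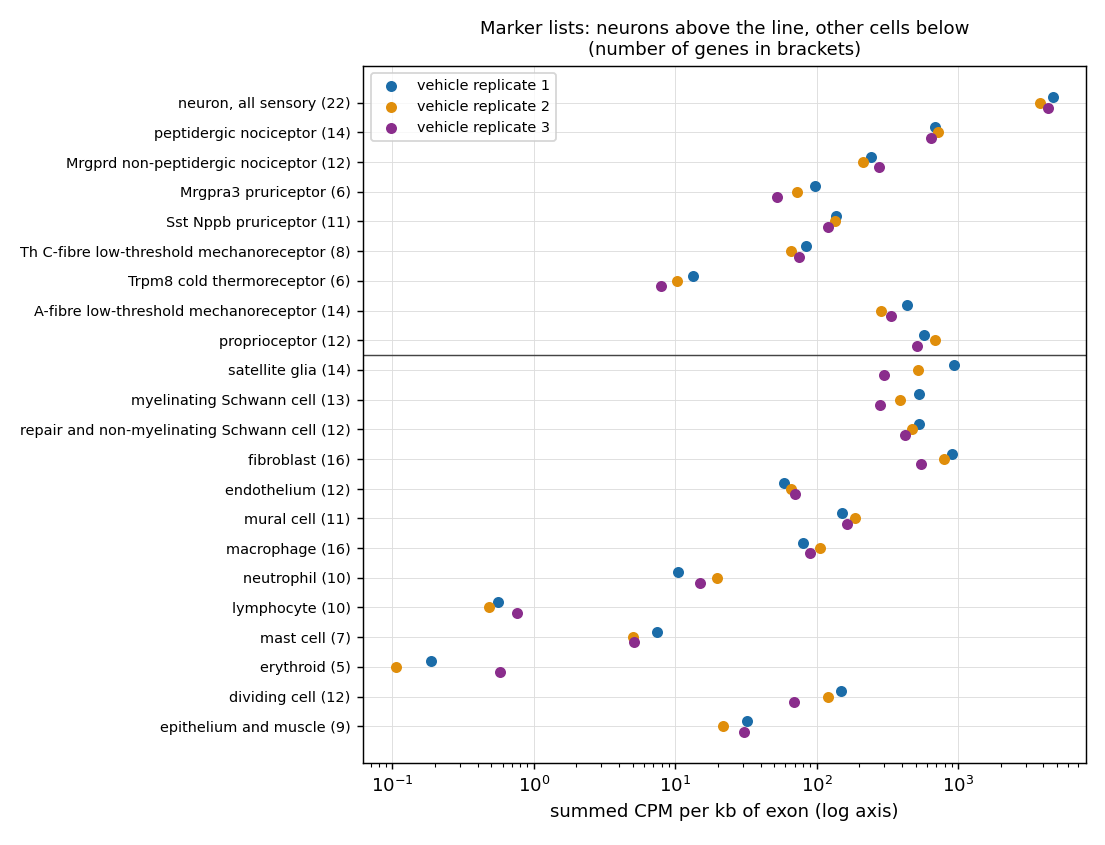
Summed CPM per kb of exon (log axis) of each marker list, with 1 point for each of the 3 vehicle cultures; lists of neurons and neuron subtypes stand above the line. The all-neuron list is the highest and the erythroid list the lowest, and replicate 3 is lowest for satellite glia.

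At 1 CPM or more in all 3 cultures stood 50.03% of all genes with a known length and 61.6% of protein-coding genes. Of 383 listed transcription factors, 258 (67.4%) did so. At 100 CPM or more stood 32 of them, and 14 had no counts. Jun, the AP-1 subunit that neurons raise after axon injury, led at 206, 164 and 178 CPM per kb. Klf7, a Kruppel-like factor that promotes axon growth, followed at 110.5, 87.7 and 103 CPM per kb. All 32 of the injury and regeneration factors were at 1 CPM or more in all 3 cultures.

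The stress factors Atf4 and Atf5 separated the cultures. Atf4, the main factor of the integrated stress response, stood at 50.6, 61.0 and 165 CPM per kb, and Atf5, one of its targets, at 58.4, 64.0 and 122 CPM per kb. Replicate 3 was the highest for both, while Jun was highest in replicate 1. Jund stood at 61.6, 70.0 and 69.2 CPM per kb, Klf6 at 53.9, 47.7 and 62.9 CPM per kb and Stat3, which carries cytokine signals to the nucleus, at 49.97, 49.1 and 52.2 CPM per kb. Stat3 was nearly equal in the 3 cultures. Atf3, a factor that sensory neurons switch on after axon injury, was added after its value had been seen: it stood at 66.6, 54.3 and 67.3 CPM per kb, lowest in replicate 2.

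Factors that set sensory neuron identity were present together. Of 45 in the files 36 reached 1 CPM in all 3 cultures. Etv5, an ETS factor, stood at 57.4, 62.1 and 62.6 CPM per kb and Prdm12, needed to form nociceptors, at 49.8, 41.9 and 70.4 CPM per kb. Pou4f1 (Brn3a) stood at 45.4, 35.4 and 55.1 CPM per kb and Isl1, a LIM homeobox factor, at 27.9, 23.4 and 38.9 CPM per kb. Prdm12, Pou4f1 and Isl1 were each highest in replicate 3. Runx1, the factor of non-peptidergic nociceptors, stood at 12.7, 14.0 and 16.1 CPM per kb, and Neurod6 had no counts.

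Of 39 HOX genes, which record position along the body axis, 30 stood at 1 CPM or more in all 3 cultures. Hoxc6 was the highest at 14.1, 16.1 and 9.53 CPM per kb, with Hoxb4 at 5.71, 6.80 and 6.39 and Hoxd8 at 5.35, 5.61 and 7.31 CPM per kb. Hoxa13, Hoxb1 and Hoxd12, genes from the ends of their clusters or next to them, had no counts. Sox10, the factor of glia derived from neural crest, stood at 86.6, 75.3 and 36.5 CPM per kb and was lowest in replicate 3. Sox11, a factor of immature and regrowing neurons, stood at 32.4, 29.6 and 36.1 CPM per kb. Among nuclear receptors Thra, a thyroid hormone receptor, led at 22.1, 18.1 and 21.9 CPM per kb, and among the inhibitors of bHLH factors Id1 led at 29.7, 40.4 and 50.4 CPM per kb, highest in replicate 3.

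Some growth factor receptors were among the highest of the listed receptors. Ngfr, the low-affinity neurotrophin receptor that neurons and Schwann cells share, stood at 219, 222 and 231 CPM per kb and Ret, the signalling receptor for GDNF, at 151, 138 and 148 CPM per kb. Both were level across the cultures. Gfra1, the GDNF-binding partner of Ret, stood at 65.9, 55.6 and 35.9 CPM per kb, lowest in replicate 3. The kinase gene Axl, a receptor for Gas6, stood at 69.5, 79.9 and 51.4 CPM per kb.

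Of 45 cytokine and TGF-beta family receptors 40 reached 1 CPM in all 3 cultures. Among them Lifr, for leukemia inhibitory factor, stood at 81.9, 64.1 and 76.8 CPM per kb. Il6st, the signalling chain gp130 shared by the interleukin-6 family, stood at 56.8, 54.0 and 44.9 CPM per kb. Il6ra, of the same family, was lower at 1.28, 1.49 and 0.848 CPM per kb. Lifr was lowest in replicate 2 and Il6st in replicate 3. Among genes that bind or process hyaluronan and pentraxins, 19 of 28 reached 1 CPM in all 3. Cd44, the main hyaluronan receptor, stood at 147, 154 and 148 CPM per kb and carried 63.5% of the sum of the list. Tmem2, a hyaluronidase of the cell surface, stood at 14.6, 14.6 and 11.9 CPM per kb. Ptx3, the pentraxin of the test complex, was added after its value had been seen and stood at 2.39, 4.01 and 5.79 CPM per kb in these untreated cells, highest in replicate 3.

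Beside 50.03% of all genes with a known length, 61.6% of protein-coding genes stood at 1 CPM or more in all 3 cultures. Of 293 listed G protein-coupled receptors 143 (48.8%) did so, and 8 stood at 100 CPM or more. Npr1, Npr2 and Npr3, natriuretic peptide receptors that do not belong to this class, are counted among them. The median of their mean levels was 0.365 CPM per kb, against 1.20 CPM per kb for listed channels, 2.63 for listed transcription factors and 0.676 for all genes with a known length. Gabbr1, a subunit of the GABA-B receptor, led at 51.8, 47.3 and 51.2 CPM per kb, and its partner Gabbr2 stood at 21.97, 18.6 and 30.4 CPM per kb. Ackr1, a chemokine-binding receptor that does not signal through G proteins, stood at 53.9, 33.9 and 43.4 CPM per kb, and S1pr3, for sphingosine-1-phosphate, at 40.5, 57.9 and 30.4 CPM per kb. Gabbr1 was level across cultures, while S1pr3 was highest in replicate 2.

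F2rl2, a protease-activated receptor, stood at 44.4, 40.5 and 43.5 CPM per kb and Ptgir, the prostacyclin receptor, at 15.0, 28.7 and 28.9 CPM per kb. Ptgir was lowest in replicate 1. For pain control Oprm1, the mu opioid receptor, stood at 4.23, 4.08 and 4.19 CPM per kb and led its family, with Oprd1 (delta) at 1.94, 1.55 and 2.63 and Oprl1 (nociceptin) at 0.637, 0.429 and 0.883 CPM per kb. Among G protein-coupled receptors Adora1, for adenosine, led those of purines at 14.4, 12.1 and 14.0 CPM per kb and Htr1d led those of serotonin at 6.38, 4.41 and 6.70 CPM per kb. Npy1r, for neuropeptide Y, stood at 16.4, 16.8 and 16.9 CPM per kb. Adora3, Mrgprb3, Xcr1, Adgrf3, Gpr33 and Gpr101 had no counts.

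For channels the same 2 shares apply, 50.03% of all genes with a known length and 61.6% of protein-coding genes. Of 284 listed channel genes 189 (66.5%) stood at 1 CPM or more in all 3 cultures, 32 at 100 CPM or more, and 9 had no counts. P2rx3, given with its subtype, was the highest per kb. All 9 sodium channel alpha genes were at 1 CPM or more. Scn10a, the tetrodotoxin-resistant channel of nociceptors, carried 43.3% of their sum of 246, 227 and 231 CPM per kb. Scn9a, whose loss removes pain in people, stood at 52.7, 44.8 and 44.2 CPM per kb and Scn11a at 42.8, 39.5 and 37.9 CPM per kb.

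Among calcium channels the pore gene Cacna1b (N-type, which triggers transmitter release) led at 18.7, 23.6 and 19.4 CPM per kb. Its helpers were higher: Cacnb3 at 49.6, 50.2 and 62.9 CPM per kb and Cacna2d1, the target of gabapentin, at 45.6, 41.4 and 34.9 CPM per kb. Cacng6 had no counts. Of 40 voltage-gated potassium channel genes 31 reached 1 CPM in all 3, led by Kcna1 at 59.7, 36.0 and 47.2, Kcna6 at 25.4, 23.5 and 18.7 and Kcnc4 at 18.2, 14.2 and 24.2 CPM per kb. All 3 genes restore the resting potential after a spike or hold it down, and Kcna1 was highest in replicate 1. Kcnk3, a leak channel, led the two-pore family at 6.23, 6.26 and 7.33 CPM per kb.

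Channels for chemical and mechanical stimuli were led by few genes. Trpv1 and then Trpv2, at 12.1, 12.5 and 16.8 CPM per kb, led 13 of 22 TRP genes at 1 CPM or more in all 3, and Trpc2, Trpv5 and Trpv6 had no counts. After Piezo2, Tmem63c stood at 30.6, 27.0 and 30.9 CPM per kb, and Asic4 and Asic5 had no counts. Lrrc8a, the required subunit of the volume-regulated anion channel, stood at 39.2, 36.4 and 45.9 CPM per kb. Among transmitter-gated channels the kainate receptor gene Grik1 stood at 28.1, 18.8 and 17.0 CPM per kb and the serotonin channel gene Htr3a at 11.3, 7.33 and 11.7 CPM per kb. Grik1 was highest in replicate 1.

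**Figure D3:**
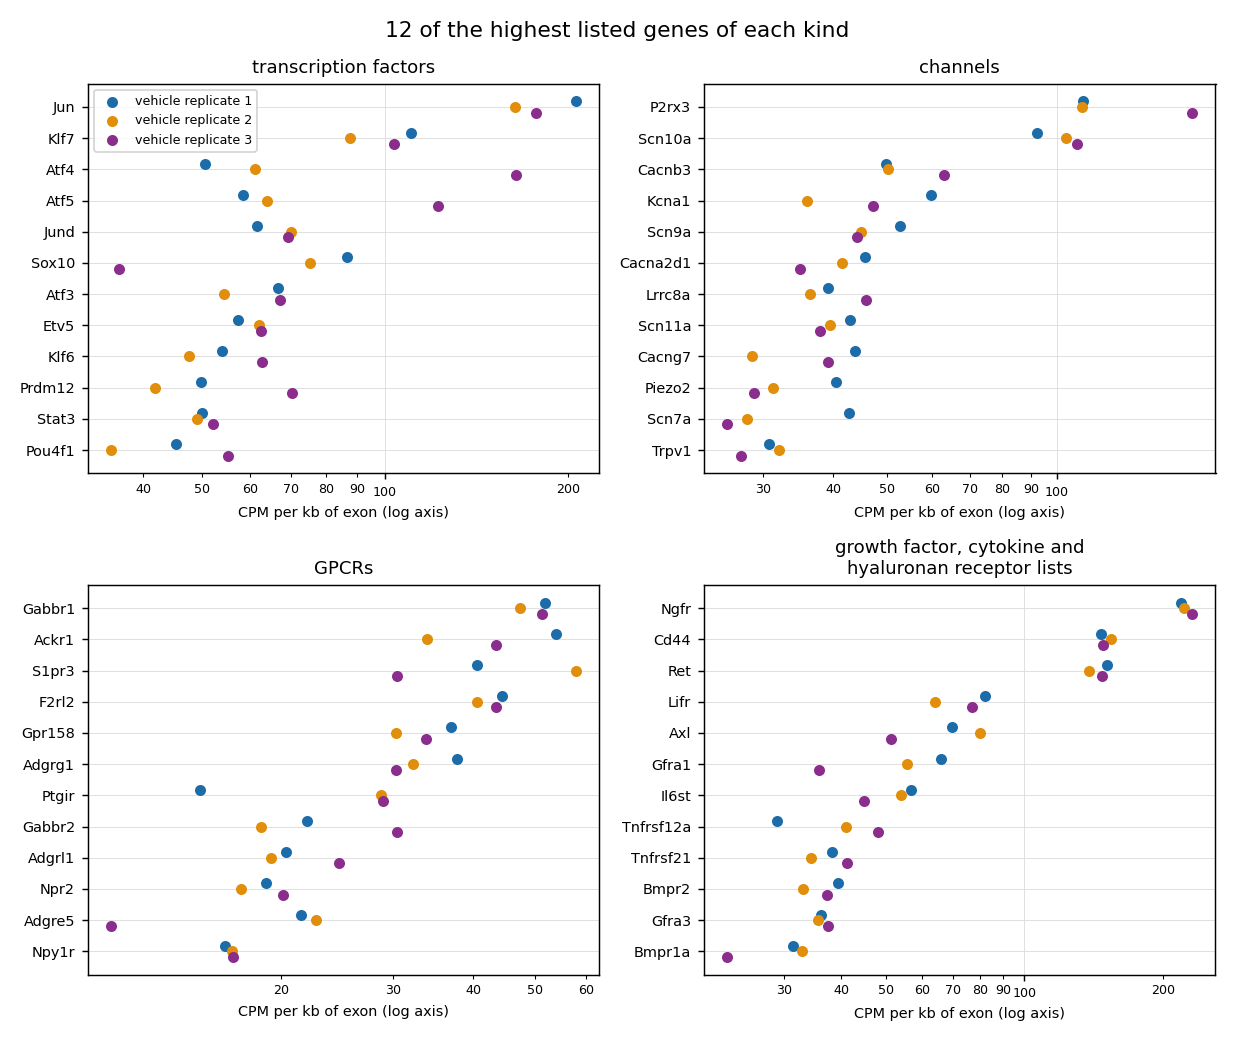
CPM per kb of exon (log axis) of 12 of the highest genes each among the listed transcription factors, channels, G protein-coupled receptors and other receptors, with 1 point for each of the 3 vehicle cultures. Jun, P2rx3, Gabbr1 and Ngfr lead the 4 panels. Npr2, in the third panel, is not a G protein-coupled receptor.

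Of 42 precursor genes 21 reached 1 CPM in all 3 cultures, and their sum was 1406, 1397 and 1396 CPM per kb. Vgf, a protein of secretory granules, carried 25.0% of it at 357, 343 and 349 CPM per kb, and Scg2 (secretogranin) stood at 187, 191 and 209 CPM per kb. Both were level across cultures. Nppa had no counts. For transmitter, Slc17a6, which loads glutamate into vesicles, stood at 75.3, 71.0 and 80.7 CPM per kb. Chat and Slc6a3, of acetylcholine synthesis and dopamine uptake, had no counts.

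The injury response list other than factors had 29 of 33 members at 1 CPM or more in all 3 cultures. Gap43, a growth cone protein, had the highest mean, at 209, 201 and 169 CPM per kb. In replicate 1 Sprr1a was higher at 227 CPM per kb, and in replicate 3 Basp1 and Hspb1 were higher. Basp1, of the same membrane sites, stood at 187, 178 and 195 CPM per kb and Hspb1, a small heat shock protein of injured neurons, at 193, 159.9 and 204 CPM per kb. Gap43 was lowest in replicate 3 and the other two were lowest in replicate 2.

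Markers of other cell types were present in cultures labelled as neurons. From its own marker check the paper describes a highly enriched neuronal population. It reports Calca as high and Apoe, Fabp7, Cldn5 and Flt1 as very low. Here Calca stood at 268, 293 and 306 CPM per kb and Flt1 at 3.47, 3.56 and 3.20 CPM per kb, and Apoe is given below. Each list was read in full. Satellite glia had 14 of 14 genes at 1 CPM or more in all 3 cultures, led by Apoe, a lipid carrier, at 310.5, 111 and 45.6 CPM per kb, and myelinating Schwann cells 12 of 13, led by Pmp22 at 228, 188 and 185 CPM per kb. The myelinating list summed to 529.9, 386 and 281 CPM per kb, and the repair Schwann list to 528, 475 and 419.6 CPM per kb with 9 of 12 genes. Ngfr, which neurons and Schwann cells share, carried 47.2% of the repair Schwann sum and was itself highest in replicate 3. All 3 lists were highest in replicate 1 and lowest in replicate 3. Without replicate 3 their mean sums were 718, 452 and 495 CPM per kb, against 585, 399 and 474 with it.

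Fibroblasts had 14 of 16 list genes at 1 CPM or more in all 3 cultures, summing to 898, 798 and 546 CPM per kb. Sparc, a matrix protein, was the most abundant at 272, 229 and 135.3 CPM per kb and Fn1 (fibronectin) stood at 86.6, 119 and 107 CPM per kb. Without replicate 3 the mean sum was 837 CPM per kb, against 747 with it; per kb of the longest transcript the mean sum was 1169.7 CPM per kb. All 44 collagen genes had counts in all 3 cultures and 31 reached 1 CPM; Col4a1, of basement membranes, led at 122, 117 and 77.9 CPM per kb, lowest in replicate 3.

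Vessel and blood lists were lower. Endothelium had 12 of 12 genes at 1 CPM or more in all 3 and summed to 58.8, 66.1 and 70.2 CPM per kb, led by Cdh5, the junction cadherin of vessels. Mural cells had 10 of 11 and summed to 152, 187 and 162 CPM per kb, led by Tagln of smooth muscle. Macrophages had 14 of 16 and summed to 80.4, 105 and 89.7 CPM per kb, led by Lyz2 (lysozyme). Each of the 3 sums was lowest in replicate 1. Among members at a mean of 10 CPM or more, the median log2 ratio of replicate 3 to the mean of the other 2 was 0.33 for endothelium, -0.30 for mural cells and 0.01 for macrophages.

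Neutrophil markers had 3 of 10 at 1 CPM or more in all 3 and summed to 10.4, 19.8 and 15.0 CPM per kb, led by S100a9. Of 10 lymphocyte genes none reached 1 CPM in all 3, the sum was 0.555, 0.48 and 0.755 CPM per kb, Cd79a was the most abundant, and Cd3g had no counts. None of the 5 erythroid genes reached 1 CPM in all 3 either; their sum was 0.186, 0.106 and 0.573 CPM per kb, led by Hbb-bs, with a mean of 0.144 without replicate 3 against 0.288 with it, and Hba-a1 had no counts. Cd3g belongs to T cells and Hba-a1 to red cells, and no gene of the other non-neuronal lists was without counts in all 3 cultures. The mast cell sum of 7.41, 5.01 and 5.11 CPM per kb was 87.7% Kit, and the epithelium and muscle sum of 32.0, 21.8 and 30.8 CPM per kb was 79.9% Cdh1, which sensory neurons or glia can also make; 2 of 7 and 5 of 9 of their genes reached 1 CPM in all 3. Per kb of the longest transcript the mean mast cell sum was 9.55 CPM per kb, against 5.84 per kb of joined exons.

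Genes of dividing cells were present in every culture. All 12 genes of their list stood at 1 CPM or more in all 3 cultures. Pcna, the clamp of DNA replication, had the highest mean, at 28.4, 29.4 and 21.8 CPM per kb. Mki67, present only in cycling cells, stood at 39.7, 26.4 and 11.7 CPM per kb and lay above Pcna in replicate 1. Mki67 was highest in replicate 1 and Pcna in replicate 2, and both were lowest in replicate 3. Without replicate 3 the mean sum was 133 CPM per kb, against 113 with it. The part of glia, fibroblasts and dividing cells in the levels of genes that neurons share with them was not tested.

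Sex-linked genes were read against the methods, which name mice of both sexes. The Y-linked genes Ddx3y, an RNA helicase, and Eif2s3y, a translation factor, stood at 13.7, 13.9 and 14.2 CPM per kb and at 12.2, 12.3 and 10.2 CPM per kb. Xist, the RNA that silences 1 X chromosome in female cells, had 10, 11 and 22 counts, or 0.0137, 0.0141 and 0.0221 CPM per kb. All 3 cultures had Y-linked RNA and little Xist. Tsix, which overlaps Xist on the opposite strand and was added after its values had been seen, had 0, 1 and 0 counts. The strand setting of the counting is not stated, so the levels of overlapping genes on opposite strands are uncertain.

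Spread between the cultures was small for most genes and large for a glial set. The median biological coefficient of variation was 0.192, with 0.15 at the 10th and 0.277 at the 90th percentile of genes. It was 0.142 without replicate 3, 0.243 without replicate 2 and 0.207 without replicate 1. Of 10217 genes at a mean of 10 CPM or more, 681 had a highest culture over 2 times the lowest. Of these 535 were lowest in replicate 3 and 455 were highest in replicate 1. Pair by pair, 71 genes lay over 2 times apart between replicates 1 and 2, 585 between 1 and 3 and 416 between 2 and 3.

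Among the genes with the largest spread were Gpr37l1, Kcnj10, Itih5 and Rarres2. Gpr37l1, a receptor of astrocytes and satellite glia, stood at 33.5, 15.7 and 0.648 CPM. Kcnj10, the potassium channel by which satellite glia buffer potassium, stood at 215, 127 and 5.15 CPM, and Itih5, of the family whose heavy chains bind hyaluronan, at 295, 128 and 8.97 CPM. All 4 were highest in replicate 1, lower in replicate 2 and lowest in replicate 3. For Kcnj10 the log2 ratio of replicate 3 to the mean of the other 2 was -4.99, while replicates 1 and 2 differed by 0.76 on the log2 scale. The 5 genes with the smallest spread were Ensa, Hcfc2, Rab33b, Pcid2 and Pigq; Ensa, an inhibitor of a phosphatase in mitosis, stood at 101, 101 and 101 CPM.

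Spread differed between lists. Among members at a mean of 10 CPM or more, the median SD of log2 CPM was 0.91 for satellite glia, 0.73 for myelinating Schwann cells, 0.61 for dividing cells and 0.54 for fibroblasts. It was 0.20 for the all-neuron list, 0.18 for macrophages (4 genes) and 0.17 over all genes at that level. Of the other non-neuronal lists, it was 0.63 for epithelium and muscle (2 genes), 0.34 for repair Schwann cells, 0.31 for mural cells and 0.29 for endothelium. Subtype lists ran from 0.18 for the Sst and Nppb class to 0.47 for the Mrgpra3 class (2 genes), with 0.45 for A-fibre mechanoreceptors, 0.36 for the Mrgprd class and 0.31 for the Trpm8 class (2 genes). The plot of log2 ratios shows most satellite glia genes below 0 when replicate 3 is set against replicate 2, with S100b and Cadm2 above it.

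**Figure D4:**
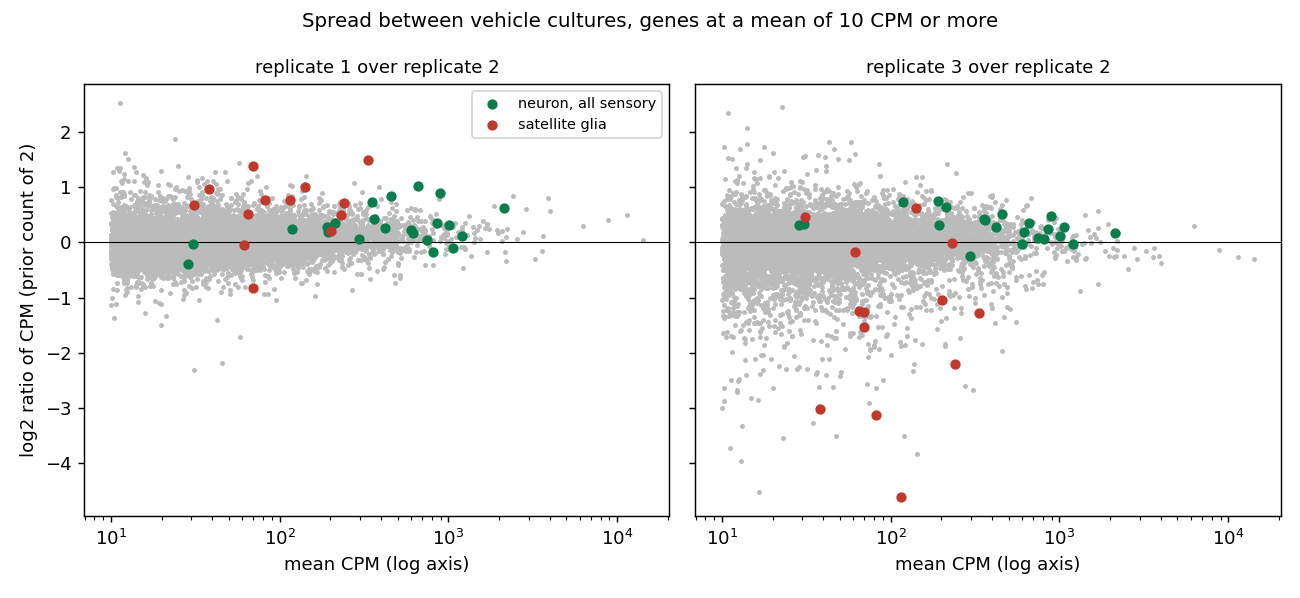
Log2 ratio of CPM (prior count of 2) of replicate 1 and of replicate 3 to replicate 2, against mean CPM (log axis), for all genes at a mean of 10 CPM or more (grey), with the all-neuron list in green and the satellite glia list in red. Most glial genes lie above 0 on the left and below 0 on the right.

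Because these 4 genes of large spread moved together, their promoters were read for the letters that SOX factors such as Sox10 bind, ACAAAG or ACAATG on either strand. RefSeq promoters of 300 bases were matched for 3 of the 4 (Gpr37l1, Itih5 and Kcnj10). The letters were found in 1 of 3, Kcnj10, and in 28.6% of all 32851 promoters. A match is a description and no binding site. Part of the Kcnj10 promoter is shown from chr1:172341150-172341259 (GRCm38.p6, plus strand, RefSeq), with the match in capitals.
Kcnj10 promoter: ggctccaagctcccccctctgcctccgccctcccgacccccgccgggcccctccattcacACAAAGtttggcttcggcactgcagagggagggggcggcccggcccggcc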

How the data were processed

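The authors deposited 1 file of counts per gene for each culture, made from total RNA libraries with ribosomal RNA removed (Ribo-Zero Plus). The methods name HISAT2 for alignment to mm10, while the headers of the deposited counts name STAR, and featureCounts (Subread) for counting. The methods name both RefSeq and Ensembl genes, and the symbols follow RefSeq. The strand setting is not stated.

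The 3 vehicle libraries held 42516054 to 54117547 counts. They were scaled by TMM in edgeR 4.0.16 (R 4.3.3), with factors of 0.954, 1.02 and 1.03. Exon lengths came from GENCODE M21 by symbol or synonym, and from RefSeq for mitochondrial genes, and covered 99.5% of counts. Genes without a length have no CPM per kb. Spread was the square root of the tagwise dispersion (estimateDisp, intercept only) over genes at 1 CPM or more in all 3 cultures, tested on simulated data, and the SD of log2 CPM with a prior count of 2. Tables and plots used Python 3.11.15, pandas 2.3.3 and matplotlib 3.10.9. With 1 group of 3 no test was made.

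Named are the 20 genes highest by CPM and by CPM per kb, the 3 highest and the uncounted members of each list and family, cell type markers, and the 5 genes with the largest and smallest spread at a mean of 10 CPM or more. Others are said to be added, apart from Il6ra and Sprr1a, whose values are given although this rule does not name them. Members and lists were chosen with earlier results of these data known. Alternatives were library totals, DESeq2 1.42.0 size factors, other detection limits, longest-transcript lengths, a table without mitochondrial and abundant small RNA genes, and leaving out each culture.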

Additional observations from a re-analysis of the deposited data

How the results depend on the processing

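The 3 cultures give levels and a spread, and no test. On simulated counts the coefficient of variation was recovered where genes share 1 spread. It ran above the true median where a few genes vary far more or genes differ widely. It can therefore run high for the spread between these libraries. It sets no upper limit for the spread between animals, since the labels do not state whether the replicates are separate animals or cultures. Exon lengths join all annotated transcripts, and genes that share reads with near-identical copies are uncertain. Leaving out each culture in turn (leave-one-out) gave 14360 to 14518 genes at 1 CPM or more in the rest, a share of 5.79 to 6.56% in the 10 most abundant genes, a median coefficient of variation of 0.142 to 0.243, and sums of 4127 to 4432 CPM per kb for all neurons and 419 to 718 CPM per kb for satellite glia. Leaving mitochondrial and abundant small RNA genes out of the table moved the share of counts in the 10 most abundant genes to 3.40% and the peptidergic nociceptor sum to 721 CPM per kb. Taking all genes with at least 1 count moved the median coefficient of variation to 0.285. Per kb of the longest transcript, 11 of the 22 list sums moved by more than the SD over cultures: all neurons 4917, peptidergic nociceptor 947, Mrgprd non-peptidergic nociceptor 341, Sst Nppb pruriceptor 165, Th C-fibre low-threshold mechanoreceptor 102, repair and non-myelinating Schwann cell 548, fibroblast 1169.7, endothelium 94.7, mural cell 189.7, mast cell 9.55, and dividing cell 155 CPM per kb. No list sum moved by more than its SD with library totals or DESeq2 size factors in place of TMM. Against 14238 genes at 1 CPM or more in all 3 cultures, 18750 stood at 0.1 CPM or more, 17309 had 10 counts or more, and 15407 reached 1 CPM in 1 culture or more. A named gene is counted as moved when its mean level shifted by more than its SD over the 3 cultures, which a gene with no counts cannot do. Of 456 named genes, 165 moved per kb of the longest transcript, 0 with library totals and 0 with DESeq2 size factors. With mitochondrial and abundant small RNA genes left out, 31 of 445 moved. By the same rule, 12 of 456 named genes moved without replicate 1, 5 without replicate 2 and 8 without replicate 3. Leaving out 1 of 3 values can hardly shift their mean by that much. These 3 counts are therefore a weak check, and the leave-one-out ranges above are given beside them.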

Other observations

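Replication-type histone genes, whose RNAs end without a poly(A) tail, had 52 of 69 members at 1 CPM or more in all 3 vehicle cultures and summed to 1616, 1577 and 1076 CPM per kb, lowest in replicate 3 as the dividing cell list was. Hist2h2bb led them at 148, 95.7 and 69.0 CPM per kb; these genes are near-identical to each other, so the level of each member is uncertain. Among FOX factors Foxd3, of neural crest and glia, led at 27.2, 22.5 and 10.7 CPM per kb, and in the LIM homeobox family Isl2, a partner of Isl1, followed it at 25.3, 20.9 and 44.0 CPM per kb. Adhesion and Wnt receptors were led by Adgrg1 at 37.7, 32.2 and 30.3 and Fzd3, which guides axons, at 10.1, 9.32 and 6.77 CPM per kb. Of 23 connexin and pannexin genes 7 reached 1 CPM in all 3 cultures, led by Panx2 at 9.04, 5.77 and 9.80 and Gjb1, a connexin of Schwann cells, at 10.9, 7.46 and 4.43 CPM per kb. Itpr3, a calcium release channel of the endoplasmic reticulum, stood at 20.4, 16.8 and 6.47 CPM per kb, and the inward rectifier sum of 57.9, 41.3 and 19.6 CPM per kb was 54.0% Kcnj10. Itpr3 and the inward rectifier sum were lowest in replicate 3.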
